A study of Mus musculus with 2 samples.

Results

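The heat shock chaperones of the cytosol and mitochondria were examined in mouse lung fibroblasts from bleomycin-treated and saline-treated lungs. The set held 38 genes of 16040 in the deposited table, chosen by symbol from the Hsp70, Hsp110, Hsp90, Hsp60 and Hsp10, small heat shock protein, J-domain, TRiC and cochaperone families together with the heat shock factors Hsf1 and Hsf2. The bleomycin group was a single tag library of lung fibroblasts from 3 mice taken 14 days after the drug, a DNA-damaging agent used to produce lung fibrosis, was put into the trachea. The saline group was a single library of lung fibroblasts from 3 mice taken 14 days after saline was given by the same route. All mice were of the Col1a2-EGFP strain, in which a green fluorescent protein reports the activity of a type 1 collagen gene, and lung cells freed with proteases were sorted by flow cytometry for the reporter and against lineage markers. Endothelial and epithelial markers were still counted in both libraries, at higher summed levels in the saline library, as given at the end. Neither the sex nor the age of the mice is in the sources used here. Each library pooled its mice, so every difference described here is between 2 libraries, has no replicate check, and carries an error from counting alone.

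Chaperones bind unfolded or partly folded proteins and help them fold, assemble or be degraded. Hsp70 proteins cycle on and off their clients under the control of J-domain proteins, which start the cycle, and of Hsp110 and Bag proteins, which release nucleotide and reset it, while Hsp90 and its cochaperones mature signalling proteins. TRiC is a ring-shaped chaperonin best known for folding actin and tubulin, and Hsp60 with Hsp10 does the same kind of work inside mitochondria. Heat shock factor, the product of Hsf1, binds repeats of the letters GAA and TTC in the promoters of many of these genes during stress.

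A tag library takes a single short tag per transcript, normally from the CATG nearest to the 3′ end, so levels are compared between genes as counts per 1000000 library counts (CPM) with no correction for length. The tags that separate the close relatives in the set were therefore read from the reference transcripts. Of the 38 genes, 37 matched a GENCODE M21 transcript through the transcript record in the deposited table, and Cct6a did not. The 25 bases that start at the last CATG are shown for the pair of inducible Hsp70 genes and for the pair of cytosolic Hsp90 genes, with the CATG in capitals.
Hspa1a: CATGtgttcagtttttacacaacca
Hspa1b: CATGtctacactgccaccctgtgta
Hsp90aa1: CATGaaatcctgtcttggaggctat
Hsp90ab1: CATGtctacaagaatcttctatcct
The last tags of Hspa1a and Hspa1b are different, but 6 of the 9 CATG tags in each of these transcripts occur in both, so a tag from an incompletely cut transcript could come from either gene. Hsp90aa1 and Hsp90ab1 shared none of their 15 and 16 tags. Among the 37 genes, 2 had a last tag that is also the last tag of another annotated gene: that of Hspb1 occurs in the pseudogene Hsp25-ps1 and that of Ahsa1 in Gm49207. The labels do not say how tags were assigned to transcripts, so the split between Hspa1a and Hspa1b and the counts of Hspb1 and Ahsa1 are uncertain.

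Promoter windows run from 250 bases before to 50 bases after a transcription start. They are shown for 5 genes that hold an exact match to 3 units of the heat shock element or belong to the inducible Hsp70 pair. Dnajb6, which also holds 3 units and had a ratio of bleomycin to saline of 0.692, is not shown. The windows come from RefSeq on build GRCm38.p6. Runs that match GAANNTTC or TTCNNGAA, the pairs of units that heat shock factor can bind, are in capitals. Hspe1 lies on the plus strand (chr1:55087898-55088197), Hsph1 on the minus strand (chr5:149636287-149636586), Hspa1a on the minus strand (chr17:34972107-34972406), Hspa1b on the minus strand (chr17:34959189-34959488) and Chordc1 on the plus strand (chr9:18292017-18292316).
Hspe1: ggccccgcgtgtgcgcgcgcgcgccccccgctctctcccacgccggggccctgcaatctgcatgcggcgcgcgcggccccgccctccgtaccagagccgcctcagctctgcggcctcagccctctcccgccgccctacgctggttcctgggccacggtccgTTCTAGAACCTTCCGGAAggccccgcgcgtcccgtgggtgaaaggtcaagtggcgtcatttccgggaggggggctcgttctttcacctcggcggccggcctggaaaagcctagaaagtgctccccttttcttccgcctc
Hsph1: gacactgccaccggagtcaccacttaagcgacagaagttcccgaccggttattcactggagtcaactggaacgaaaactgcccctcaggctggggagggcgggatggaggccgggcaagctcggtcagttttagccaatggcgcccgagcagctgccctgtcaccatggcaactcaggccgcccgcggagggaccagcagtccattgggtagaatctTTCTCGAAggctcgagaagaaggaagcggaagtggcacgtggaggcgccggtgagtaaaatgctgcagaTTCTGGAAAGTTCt
Hspa1a: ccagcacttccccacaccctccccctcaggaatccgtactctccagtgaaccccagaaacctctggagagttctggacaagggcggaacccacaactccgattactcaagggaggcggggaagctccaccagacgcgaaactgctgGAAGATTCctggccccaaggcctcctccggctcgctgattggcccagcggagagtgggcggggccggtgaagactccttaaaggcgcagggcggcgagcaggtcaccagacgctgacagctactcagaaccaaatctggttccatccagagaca
Hspa1b: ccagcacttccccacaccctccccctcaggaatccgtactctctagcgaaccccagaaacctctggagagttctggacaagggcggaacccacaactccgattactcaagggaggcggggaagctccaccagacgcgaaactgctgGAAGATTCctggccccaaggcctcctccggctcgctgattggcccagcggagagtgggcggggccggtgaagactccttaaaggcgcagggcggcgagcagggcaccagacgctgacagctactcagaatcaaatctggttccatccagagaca
Chordc1: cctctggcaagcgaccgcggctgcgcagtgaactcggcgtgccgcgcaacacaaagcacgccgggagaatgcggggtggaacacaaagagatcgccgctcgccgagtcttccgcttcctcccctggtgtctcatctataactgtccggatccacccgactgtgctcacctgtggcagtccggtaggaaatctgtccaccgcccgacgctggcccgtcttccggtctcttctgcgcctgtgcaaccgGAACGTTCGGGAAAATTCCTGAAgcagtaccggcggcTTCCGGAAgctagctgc
The Hspe1 window is also a promoter of Hspd1 read on the other strand. The starts lie 216 bases apart, and the windows share 285 bases. A further Hspd1 window (chr1:55088194-55088493) has another start and held no match to either motif. The capital run of the Hspe1 window begins 89 bases before the Hspe1 start and holds overlapping matches to both orders of the motif. In the Hsph1 window the longer run, which joins 3 units, lies just after the start. The windows of Hspa1a and Hspa1b were identical at 296 of 300 positions, each with a GAANNTTC match that begins 104 bases before the start.

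The 38 genes together made up 1.67% of the bleomycin library, or 18333 of 1099840 counts, and 1.75% of the saline library, or 18886 of 1080798 counts, and the intervals of these shares (1.64 to 1.69% and 1.72 to 1.77%) do not overlap. With TMM scaling, their summed level was 16910 CPM in the bleomycin library and 17230 CPM in the saline library, with exact Poisson intervals of 16670 to 17160 and 16980 to 17470 that overlap, so whether the small difference exceeds counting error depends on the scaling. In such bulk libraries fewer cells of a type and less RNA per cell cannot be told apart. Hspa1a and Hspa1b alone held 26.1% of these counts in the bleomycin library and 31.2% in the saline library. Without this pair the order of the libraries turned round, with 12490 CPM (12280 to 12700) in the bleomycin library and 11840 CPM (11640 to 12050) in the saline library. The 6 most abundant genes were the same in both libraries, namely Hspa1b, Hspa8, Hspb1, Hsp90ab1, Hsp90aa1 and Hspa1a, and they held 68.0% of the chaperone counts in the bleomycin library and 72.2% in the saline library. At the other end, 5 genes had under 20 counts in the bleomycin library and 5 in the saline library. All 38 genes were detected in both libraries and passed the minimum of 10 counts summed over them.

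**Figure D1:**
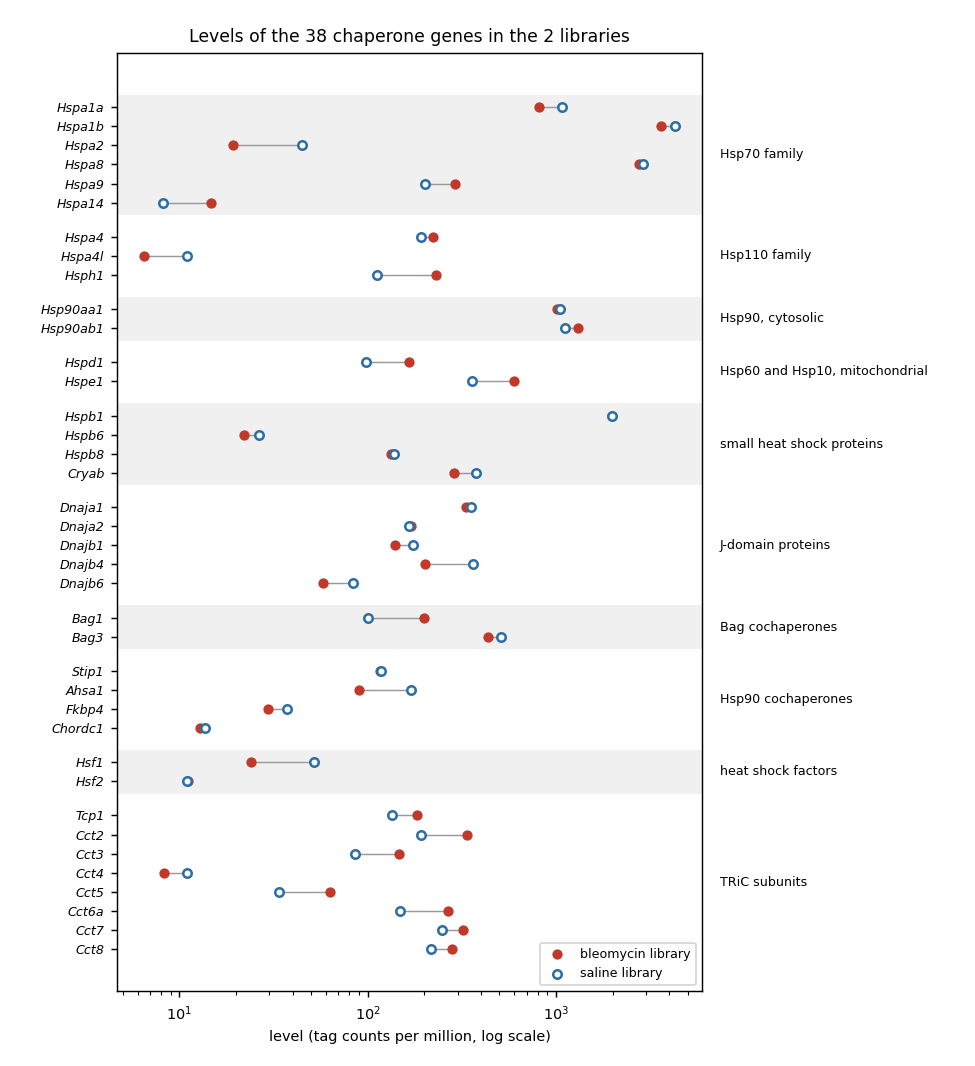
Level of each chaperone gene in the bleomycin library (filled) and the saline library (open), in CPM on a log scale, grouped by family. The levels run from under 10 CPM for Hspa4l and Cct4 in the bleomycin library to 3606 CPM (bleomycin) and 4309 CPM (saline) for Hspa1b, and most pairs of points lie close together.

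A gene was called when its ratio of bleomycin to saline was at least 2 in either direction and its exact binomial test on the counts, adjusted by Benjamini-Hochberg over 9369 genes, passed 0.05. This test compares the 2 libraries and not the conditions. Of the 38 chaperone genes, 1 was called higher in the bleomycin library, against 8.11% of all tested genes, and 2 were called lower, against 8.59%. The called genes were Hsph1, which rose, and Hspa2 and Hsf1, which fell. Both lower calls rest on few counts (21 against 49 and 26 against 57) and are lost with Bonferroni adjustment in place of Benjamini-Hochberg, which leaves 0 lower. The ratio lay between 0.5 and 2 for 35 of the 38 (92.1%), against 72.6% of all tested genes, and for 30 of the 33 with at least 50 counts (90.9%), against 81.5% of all genes with as many counts. The ratio was above 1 for 18 of the 38, against 50.4% of all tested genes. The median log2 ratio was −0.04 for the chaperone genes and 0.02 for all tested genes.

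Many chaperone genes, the called Hsph1, Hspa2 and Hsf1 among them, differed by more than counting error, and most of these by less than 2-fold. The exact 95% interval of the ratio lay wholly above 1 for 13 of the 38 (34.2%, against 17.2% of all tested genes) and wholly below 1 for 10 (26.3%, against 18.1%). Among genes with at least 50 counts these shares were 39.4% and 30.3% of 33 chaperone genes, against 23.2% and 25.0% of all. Higher counts narrow an interval, and the 38 genes had a median of 207 counts in the bleomycin and 172.5 in the saline library. A minimum of 50 counts does not match genes for depth, so these shares are not a like comparison. The higher genes were 7 of the 8 TRiC subunits, Hspd1, Hspe1 and Hspa9 of the mitochondrion, Hsp90ab1, Hsph1 and Bag1. The lower genes were Hspa1a, Hspa1b, Hspa2, Dnajb1, Dnajb4, Dnajb6, Bag3, Cryab, Ahsa1 and Hsf1. These intervals are not adjusted for the number of genes and take no account of variation between mice or preparations.

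**Figure D2:**
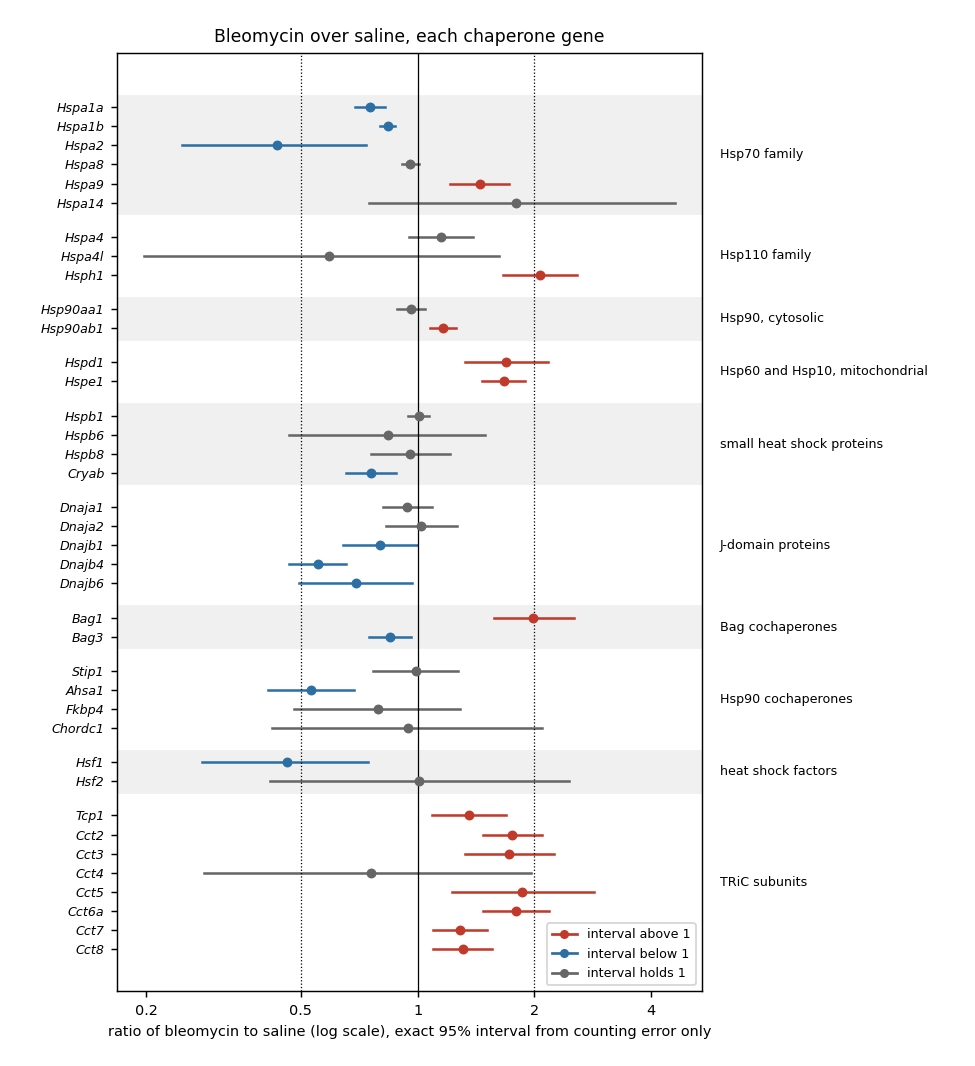
Ratio of the bleomycin to the saline library for each chaperone gene on a log scale, with the exact 95% interval from counting error and dotted lines at 0.5 and 2. Of the 8 TRiC subunits 7 have intervals above 1, as do Hspd1, Hspe1 and Hspa9, and the intervals of Hspa1a, Hspa1b, Dnajb1, Dnajb4 and Dnajb6 lie below 1.

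The stress-inducible Hsp70 genes stood slightly lower in the bleomycin library, while the constitutive one differed by less than its counting error. Hspa1b, an inducible Hsp70 that was the most abundant chaperone gene of both libraries, had 3909 counts in the bleomycin and 4724 in the saline library, a ratio of 0.837 (0.802 to 0.873). Hspa1a, its near-identical neighbour, had 880 and 1178 counts in the bleomycin and saline libraries, a ratio of 0.756 (0.692 to 0.825). Hspa8, the constitutive Hsp70 of the cytosol, had 3006 counts in the bleomycin and 3174 in the saline library, and its interval of 0.911 to 1.007 held 1. Thus Hspa1b had 1.3 counts per count of Hspa8 (1.24 to 1.36) in the bleomycin library and 1.49 (1.42 to 1.56) in the saline library, intervals that do not overlap. Hspa1a had 0.225 counts per count of Hspa1b (0.209 to 0.242) in the bleomycin library and 0.249 (0.234 to 0.266) in the saline library. These intervals overlap, which does not show that the proportion was unchanged, and the difference between these 2 values was not tested.

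The other Hsp70 genes were spread to both sides. Hspa9, the mitochondrial Hsp70 that pulls imported proteins across the inner membrane, had 316 counts in the bleomycin and 221 in the saline library, a ratio of 1.45 (1.21 to 1.73). Hspa2, an Hsp70 best known from the testis, fell to 21 counts in the bleomycin library, against 49 in the saline library, and was 2.31-fold lower (1.36 to 4.05). Hspa14, a ribosome-associated relative, had 16 counts in the bleomycin and 9 in the saline library, too few to show a difference (interval 0.748 to 4.62).

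Among the Hsp110 genes, whose products reset the Hsp70 cycle, Hsph1 rose to 251 counts in the bleomycin library, against 123 in the saline library, a ratio of 2.06 (1.66 to 2.58). It was the only chaperone gene called higher and lay just past the required ratio of 2, and Bag1 lay just short of it. Its relative Hspa4 had 240 counts in the bleomycin and 211 in the saline library, with an interval of 0.952 to 1.39. There were 1.05 counts of Hsph1 per count of Hspa4 (0.873 to 1.25) in the bleomycin library and 0.583 (0.463 to 0.732) in the saline library. Hspa4l, the third Hsp110 gene, had 7 and 12 counts in the bleomycin and saline libraries and could not be told from 1.

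Within cytosolic Hsp90, the inducible gene stood lower relative to the constitutive one in the bleomycin library. The pairs compared had no single direction, since Hsph1 stood higher relative to Hspa4 in that library. Hsp90aa1, the inducible form, had 1095 counts in the bleomycin and 1154 in the saline library, a ratio of 0.960 whose interval (0.883 to 1.04) held 1. Hsp90ab1, the constitutive form, had 1413 counts in the bleomycin and 1229 in the saline library, a ratio of 1.16 (1.08 to 1.26). Hsp90aa1 therefore had 0.775 counts per count of Hsp90ab1 (0.716 to 0.839) in the bleomycin library and 0.939 (0.866 to 1.02) in the saline library, intervals that do not overlap.

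**Figure D3:**
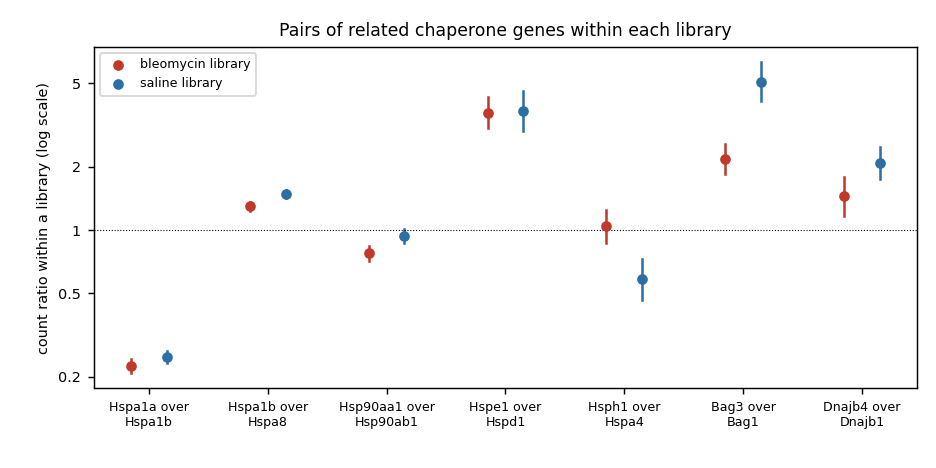
Count of one chaperone gene divided by that of a relative within the same library, on a log scale with exact 95% intervals from counting error, for 7 pairs. Library scaling cancels in these values. Bag3 over Bag1 (2.18 in the bleomycin and 5.09 in the saline library) and Hsph1 over Hspa4 (1.05 and 0.583 in the same order) differ most, and Hspe1 over Hspd1 (3.63 and 3.68) hardly at all.

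Both subunits of the mitochondrial chaperonin stood higher in the bleomycin library by nearly the same ratio. Hspd1, the Hsp60 barrel, had 179 counts in the bleomycin and 107 in the saline library, a ratio of 1.69 (1.32 to 2.17). Hspe1, the Hsp10 lid, had 649 counts in the bleomycin and 394 in the saline library, a ratio of 1.67 (1.47 to 1.89). Hspe1 had 3.63 counts per count of Hspd1 (3.07 to 4.30) in the bleomycin library and 3.68 (2.97 to 4.60) in the saline library, and these intervals for the genes on either side of the shared promoter overlap.

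The TRiC subunits were the family with the most members above 1. Cct5 had the largest ratio, with 68 counts in the bleomycin and 37 in the saline library (1.86, 1.23 to 2.85). Cct6a had 289 and 163 counts in the bleomycin and saline libraries, a ratio of 1.79 (1.48 to 2.19). Cct2 had 366 counts in the bleomycin and 211 in the saline library, a ratio of 1.75 (1.48 to 2.09). These 3 subunits and Cct3, with 160 and 94 counts in the bleomycin and saline libraries and a ratio of 1.72 (1.33 to 2.25), all lay near but under the required ratio of 2. Tcp1, the first subunit described, had 198 counts in the bleomycin and 148 in the saline library (1.35, 1.09 to 1.69). Cct8 had 306 and 237 counts in the bleomycin and saline libraries (1.31, 1.10 to 1.55), and Cct7 had 346 and 272 (1.29, 1.09 to 1.51). These 3 formed the lower end of the 7. Cct4, the exception, had 9 counts in the bleomycin and 12 in the saline library, and its interval of 0.282 to 1.96 includes the ratios of all the others. Summed over the 8 subunits, the level was 1607 CPM (1532 to 1684) in the bleomycin library and 1071 CPM (1010 to 1134) in the saline library, 1.5 times as high. Although the 8 proteins enter the complex in equal number, their tag counts within the bleomycin library ran from 9 to 366 and within the saline library from 12 to 272.

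Cell cycle genes moved in the same direction as the chaperonins. Of 15 tested cell cycle genes 12 were called higher, against 8.11% of all tested genes, and 0 lower, against 8.59%. The 24 genes on that list summed to 587.5 CPM in the bleomycin library and 225.3 CPM in the saline library. The part of this difference in the levels of TRiC, Hspd1 and Hspe1 was not tested.

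J-domain genes stood lower or level in the bleomycin library. Dnajb4, a partner of inducible Hsp70, had 219 counts in the bleomycin and 400 in the saline library, a ratio of 0.554 (0.467 to 0.655). Dnajb6, which keeps polyglutamine proteins from aggregating, had 63 and 92 counts in the bleomycin and saline libraries, a ratio of 0.692 (0.494 to 0.965). Dnajb1, the classical Hsp40, had 151 counts in the bleomycin and 191 in the saline library, and its interval of 0.641 to 0.995 barely excluded 1. The class A genes Dnaja1, with 363 counts in the bleomycin and 390 in the saline library, and Dnaja2, with 184 and 182, had intervals that held 1 (0.814 to 1.09 and 0.828 to 1.26).

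The Bag cochaperones differed in opposite directions. Bag1, which links Hsp70 to the proteasome, had 216 counts in the bleomycin and 110 in the saline library, and its ratio of 1.99 (1.57 to 2.52) was just short of a call. Bag3, which links Hsp70 and small heat shock proteins to autophagy, had 471 counts in the bleomycin and 560 in the saline library, a ratio of 0.851 (0.751 to 0.963). As a result Bag3 had 2.18 counts per count of Bag1 (1.85 to 2.57) in the bleomycin library and 5.09 (4.14 to 6.30) in the saline library, the widest gap among the 7 pairs compared.

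None of the 4 Hsp90 cochaperones in the set had a ratio above 1, and only the interval of Ahsa1 lay wholly below 1. Ahsa1, which stimulates the ATPase of Hsp90, had 98 counts in the bleomycin and 186 in the saline library, a ratio of 0.533 (0.413 to 0.684) that did not reach the required 2-fold. Stip1, the adaptor that holds Hsp70 and Hsp90 together, had 126 and 129 counts in the bleomycin and saline libraries, and its interval of 0.767 to 1.27 held 1. So did those of Fkbp4, an immunophilin of steroid receptor complexes (32 and 41 counts in the bleomycin and saline libraries, 0.481 to 1.28), and of Chordc1, a small Hsp90-binding protein (14 and 15 counts, 0.422 to 2.10).

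Small heat shock proteins, which hold unfolded proteins without using ATP, were close to level. Hspb1, the most abundant of them, had 2155 counts in the bleomycin and 2167 in the saline library, a ratio of 1.006 with a narrow interval of 0.947 to 1.07. Hspb8, a partner of Bag3, had 144 counts in the bleomycin and 152 in the saline library (0.758 to 1.21), and Hspb6, a small heat shock protein of muscle, had 24 and 29 (0.466 to 1.49). Cryab, alpha B crystallin, was the exception, with 311 counts in the bleomycin and 414 in the saline library and a ratio of 0.760 (0.654 to 0.882). Muscle cells also make Cryab and Hspb6. The 10 smooth muscle markers summed to 2655 CPM in the bleomycin and 2055 CPM in the saline library, with none at 0. Of these markers 1 was called higher, against 8.11% of all tested genes, and 5 lower, against 8.59%. Their part in these values was not tested.

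Of the heat shock factors, Hsf1 fell to 26 counts in the bleomycin library, against 57 in the saline library, and was 2.17-fold lower (1.34 to 3.59). Hsf2, a related factor, had 12 counts in each library, too few to show a difference of 2-fold in either direction (interval 0.416 to 2.46).

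Matches to the heat shock element were common in the set, with no single direction among the genes that carry them. Promoter windows were given for 31 of the 38 genes. Both motifs read the same on either strand, and they may overlap each other. Only exact matches to the letters were counted, so a gene without a match may still hold an inexact element. A match to GAANNTTC or TTCNNGAA occurred in a window of 17 of the 31 genes (54.8%), against 17% of all 27025 genes with a window. By motif, GAANNTTC occurred in 7.86% and TTCNNGAA in 8.52% of all 32851 windows. The 3-unit motif, GAANNTTCNNGAA or TTCNNGAANNTTC, which are the same motif on opposite strands and contain both shorter ones, occurred in 5 of the 31 (16.1%), against 0.662% of all genes. Those 5 were Hspd1, Hspe1 and Hsph1, with ratios of 1.69, 1.67 and 2.06 as described, Dnajb6, with 0.692, and Chordc1, with 0.944. The run of Hspd1 and Hspe1 lies in the bases their windows share, so the same element is counted for both. The set was chosen as heat shock genes, so its shares are not those of genes picked without regard to the element. The 12 genes with an exact match to a pair of units but not to 3, among them Hspa1a and Hspa1b, had a median ratio of 0.896 and ran from 0.554 to 1.86. The 14 with no match in the window had a median of 1.09 and ran from 0.433 to 1.99. No window was given for Hspa8, Hspa9, Hsp90aa1, Hsp90ab1, Cryab, Hsf1 and Cct4.

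Among other known chaperone and cochaperone genes, a few differed far more than any of the 38. Of 69 tested genes on 6 such lists, 5 were called higher, against 8.11% of all tested genes, and 2 lower, against 8.59%. The log2 ratios of the 69 had a median of 0.08. Hspb7, a small heat shock protein known from heart and skeletal muscle, rose to 106 counts in the bleomycin library, against 9 in the saline library, a ratio of 11.9 (6.04 to 26.8). Fkbp5, an Hsp90 cochaperone that glucocorticoids induce, rose to 95 counts in the bleomycin library, against 10 in the saline library, a ratio of 9.61 (5.0 to 20.7). The largest ratio among the 38 genes was the 2.06 of Hsph1.

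The remaining calls on those lists were smaller. Dnajc2, a J-domain protein of the ribosome, had 26 counts in the bleomycin and 8 in the saline library (3.29, 1.45 to 8.40). Creld2, a stress-induced protein of the endoplasmic reticulum, had 27 and 11 counts in the bleomycin and saline libraries (2.48, 1.19 to 5.55). Pfdn4, a subunit of prefoldin, which delivers actin and tubulin to TRiC, had 76 and 38 counts (2.02, 1.35 to 3.07). The myosin chaperone gene Unc45a fell to 17 counts in the bleomycin library, against 41 in the saline library, and was 2.39-fold lower (1.33 to 4.48). Hspa12b, an Hsp70 relative known from endothelium, had 2 counts in the bleomycin and 12 in the saline library and was 5.93-fold lower (1.32 to 54.6). The endothelial markers described at the end were also lower, and their part in this value was not tested.

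By list, the log2 ratios of prefoldin and TRiC cofactors had a median of 0.17 over 11 genes, and mitochondrial chaperones and proteases had 0.03 over 10, with none called and Clpp, a mitochondrial protease and the most abundant over both libraries summed, at 57 counts in the bleomycin and 86 in the saline library. ER chaperones had a median of 0.08 over 15, with the ER Hsp70 gene Hspa5 at 1249 and 1697 counts in the bleomycin and saline libraries (0.744, 0.691 to 0.801). Other Hsp70 and Hsp90 cochaperones had a median of 0.06 over 18, other J-domain genes 0.09 over 10, and other Hsp70 and small heat shock genes 0.02 over 5.

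**Figure D4:**
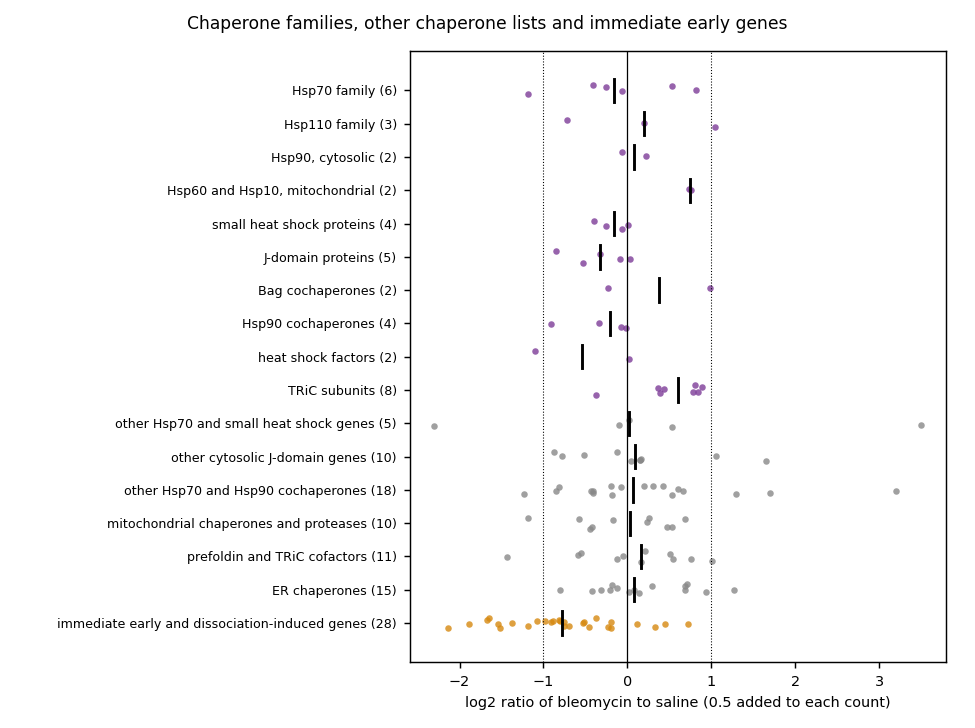
Log2 ratio of bleomycin to saline for each tested gene of the chaperone families (purple), of other chaperone lists (grey) and of genes of the immediate early or dissociation response (orange), with the median of each list as a black bar and the number of tested genes in brackets. TRiC and the Hsp60 and Hsp10 pair have medians of 0.61 and 0.75, and the immediate early genes have a median of −0.78.

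Inducible Hsp70 genes are among those known to be switched on while tissue is digested and sorted, so genes of that response were set beside them. The 30 listed genes of the immediate early and dissociation response summed to 19310 CPM (19050 to 19570) in the bleomycin library. In the saline library they summed to 38440 CPM (38070 to 38810). Of 28 tested 9 were called lower, against 8.59% of all tested genes, and 0 higher, against 8.11%. The exact interval of the ratio lay wholly below 1 for 22, against 18.1% of all tested genes. It lay wholly above 1 for 4, against 17.2%. These 4 genes were Ier3, Btg1, Klf6 and Myc, with ratios of bleomycin to saline of 1.079, 1.255, 1.361 and 1.652. Nr4a1, a nuclear receptor, fell to 311 counts in the bleomycin library, against 1391 in the saline library, and was 4.42-fold lower (3.91 to 5.02). Atf3, a stress transcription factor, had 37 counts in the bleomycin and 140 in the saline library and was 3.74-fold lower (2.59 to 5.53). Zfp36, an mRNA decay factor, had 1097 and 3551 counts in the bleomycin and saline libraries and was 3.20-fold lower (2.99 to 3.43). Gadd45b, Maff and Ier2 were 3.13-fold, 2.93-fold and 2.87-fold lower. Hspa1a and Hspa1b together stood at 4417 CPM (4293 to 4544) in the bleomycin library and 5383 CPM (5246 to 5522) in the saline library, 0.821 times as high, a smaller difference than that of the summed immediate early genes at 0.502. The part of digestion and sorting in the chaperone levels was not tested.

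All 8 fibroblast markers were counted in both libraries, with 4 ratios each above and below 1. Of the 8, 3 were called higher, against 8.11% of all tested genes, and 1 lower, against 8.59%. The collagen genes Col1a1 and Col3a1 and the fibronectin gene Fn1 had 7925, 6186 and 8890 counts in the bleomycin library and 2714, 4087 and 1018 in the saline library. Col1a2, the gene of the reporter, had 5613 counts in the bleomycin and 1636 in the saline library. Dcn, the proteoglycan decorin, fell to 1606 counts in the bleomycin library, against 4861 in the saline library, and Pdgfra, a growth factor receptor, had 323 and 509 (0.642, 0.556 to 0.739). Leukocyte markers summed to 5 counts in the bleomycin and 7 in the saline library over 10 matched genes, with Ptprc at 1 count in the bleomycin and 0 in the saline library. Endothelial markers summed to 32.3 CPM in the bleomycin and 504 CPM in the saline library. All 11 tested endothelial genes were called lower, against 8.59% of all tested genes, and 4 of 14 were at 0 in the bleomycin library and 1 in the saline library. Alveolar epithelial markers summed to 12 CPM in the bleomycin and 158.7 CPM in the saline library, mostly from Sftpc. Of these 10 genes, 7 were at 0 in the bleomycin and 4 in the saline library. Airway markers summed to 157.7 CPM in the bleomycin and 534.5 CPM in the saline library, mostly from Tppp3 (153 and 535 counts). Scgb1a1 had 12 and 46 counts in the bleomycin and saline libraries. Of the 7 matched airway genes, 2 were at 0 in the bleomycin and 4 in the saline library. Foxj1 (3 counts in the bleomycin and 0 in the saline library) and Krt5 (1 and 0) went the other way. Pericyte markers summed to 277.6 and 488.9 CPM in the bleomycin and saline libraries, and mesothelial markers to 9 counts in each. These cells may also express chaperone genes, and their part in the ratios was not tested.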

How the data were processed

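The series measured mRNA by SOLiD SAGE, a method that sequences and counts a short 3′ tag of each transcript, in 1 bleomycin and 1 saline library, each from 3 mice. The authors deposited a table of tag counts per gene, and no label says that these were scaled. BWA 0.6.2 and mm9 are named in the submitters' processing notes, with no role given, and none of them says whether strand was used. After 1 blank line was left out, 16040 genes remained.

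Libraries were scaled with TMM in edgeR 4.0.16 under R 4.3.3 (factors 0.986 for bleomycin and 1.01 for saline). edgeR's quasi-likelihood test could not be fitted, having no residual degrees of freedom, so the 9369 genes with at least 10 counts summed were compared by an exact binomial test, two-sided, and Benjamini-Hochberg adjustment. Log2 ratios add 0.5 to each count. Brackets hold 95% intervals, Clopper-Pearson for ratios within or between libraries and Poisson for summed levels. Intervals cover counting error only, because each group has a single library. No molecular identifiers are named, so copied tags could not be removed, and the intervals may be too narrow even for counting error. A count was worth 0.922 CPM in the bleomycin and 0.912 CPM in the saline library.

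The members, lists and call rule were chosen with earlier results of these data known. Every chaperone gene is reported. Of the other lists, the called genes are named (up to 6 per list), or the most abundant where none was called, and of marker lists the summed level and up to 3 abundant genes. Hspa5, Ptprc, Col1a2, Dcn, Pdgfra, Foxj1, Krt5, Ier3, Btg1, Klf6 and Myc were also named after their values were seen. Of 213 genes on those lists 205 matched, 1 of them under 2 symbols. The exact test was tried on simulated data. Alternatives changed the scaling (total counts, DESeq2 1.42.0 size factors), the minimum count, the required ratio, the adjustment and the prior count. Python 3.11.15 with scipy 1.17.1 and matplotlib 3.10.9 was used.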

Additional observations from a re-analysis of the deposited data

How the results depend on the processing

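The genes called among the 38 were Hsph1, Hspa2 and Hsf1 with total counts, with DESeq2 size factors, with no minimum count, with a minimum of 50 counts, which left 33 genes, and with the ratio alone and no test. Bonferroni adjustment kept 1 higher (Hsph1) and 0 lower, and a required ratio of 3 called 0 genes either way. A required ratio of 1.5 called 8 of the 38 higher and 4 lower, against 1104 and 1160 of 9369 tested genes. At that ratio the share called higher was larger among the 38 than among all tested genes, unlike at the required ratio of 2. Calling by the exact interval alone, chosen after seeing the data, gave 13 higher and 10 lower. Over all tested genes, higher and lower calls numbered 760 and 805 of 9369 by the main rule. They numbered 460 and 458 at a required ratio of 3, 1234 and 1334 with no test and 288 and 335 with Bonferroni adjustment. With a minimum of 50 counts they numbered 401 and 491 of 4823 genes. Stricter rules call fewer genes by construction. The summed chaperone level with total counts was 16669 CPM in the bleomycin and 17474 CPM in the saline library, and without Hspa1a and Hspa1b, also chosen after seeing the data, it was 12493 CPM in the bleomycin and 11842 CPM in the saline library. The log2 ratios of Dnaja2 (−0.0095), Hsf2 (−0.0252) and Hspb1 (−0.0332) turned negative with total counts, as did that of Hspb1 with DESeq2 size factors (−0.0080). None of these genes was called, and the changed scaling shows the cause. No paired analysis was possible because each group has a single library and the replicate number is only a name. Hspa14, Hspa4l, Hsf2, Chordc1 and Cct4, with under 20 counts in each library, have intervals too wide to place the ratio on either side of 1.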
